A study of Homo sapiens with 6 samples.

Results

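The nuclear-encoded genes of the mitochondrial respiratory chain were examined in Ewing sarcoma cells treated with THZ1, a covalent inhibitor of the transcriptional kinase CDK7. A gene was taken when it was listed as protein-coding and its symbol began with NDUF, UQCR, ATP5 or COX followed by a digit, or was SDHA, SDHB, SDHC or SDHD. This gave 110 genes of the 27420 listed, with 106 distinct symbols, because UQCR11, NDUFB8, SDHD and NDUFA7 each have a second locus of the same name. By the role of their products, 39 belonged to complex I, 5 to complex II, 9 to complex III, 18 to complex IV, 16 to complex V and 18 to the assembly factors. A further 4 were other members (ATP5S, the pseudogene-like ATP5EP2 and the readthrough loci NDUFC2-KCTD14 and ATP5J2-PTCD1), and COX6A1P2 was on no class list.

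RNA-seq was available for A673 and SKNMC, a pair of established Ewing sarcoma cell lines, each grown for 6 h in 50 nM THZ1, in 200 nM THZ1 or in DMSO, the solvent, as control. Each of these 6 conditions had 1 library, so the spread between cultures is unknown and no test was made. Expression is in FPKM, a count of fragments per unit of transcript length and of library size, which allows levels to be compared between genes. A change is the log2 ratio of FPKM with 1 added, THZ1 against the DMSO library of the same line, and a gene counted as active in a line when its FPKM with DMSO was above 1.

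The respiratory chain passes electrons from NADH through complex I, or from succinate through complex II, to ubiquinone, then through complex III and cytochrome c to complex IV, where oxygen is reduced. Complexes I, III and IV pump protons across the inner mitochondrial membrane, and complex V, the ATP synthase, uses the gradient to make ATP. Most subunits are encoded in the nucleus, a few in mitochondrial DNA, and separate assembly factors insert cofactors and put the complexes together without being part of the finished enzyme.

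The labelled tumor type was checked on genes known to be high in these cells. NR0B1, NKX2-2, STEAP1, CCND1, PRKCB and CD99 were all above 10 FPKM in both DMSO libraries. Of the markers of other cell types, CD3E was listed at 0 in all 6 libraries and EPCAM was below 1 FPKM, PECAM1 was not found under that symbol, and PTPRC, the leukocyte antigen CD45, lay between 7.90 and 13.1 FPKM in SKNMC and near 0.02 FPKM in A673; its part in the results was not tested. The listed FPKM of the THZ1 libraries summed to between 97.8% and 100.5% of the DMSO library. The translation factor EEF1A1, at 4400 FPKM in SKNMC with DMSO, was listed at 0 there at 50 and at 200 nM. No respiratory chain gene was listed at 0 in one library and above 10 FPKM in another.

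Of the 110 genes, 97 were active in A673 and 98 in SKNMC, with 97 active in both, and 88 were above 10 FPKM in both DMSO libraries. The 13 that were not active in both were mainly tissue-restricted isoforms, second loci and readthrough loci. COX4I2, COX6A2 and COX7B2, which are isoforms of ubiquitous complex IV subunits, were listed at 0 in all 6 libraries.

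With DMSO, the respiratory chain genes ranged over more than 2 orders of magnitude, and their level differed by role. The median level in A673 was 77.6 FPKM for complex I, 89.7 FPKM for complex II, 86.1 FPKM for complex III, 197 FPKM for complex IV and 193 FPKM for complex V. The assembly factors had a median of 21.4 FPKM, against 15.6 FPKM for all active protein-coding genes. SKNMC had the same ordering of the extremes, with 220 FPKM for complex IV, 191 FPKM for complex V and 24.7 FPKM for the assembly factors. The highest member in A673 was ATP5B, the catalytic beta subunit of the ATP synthase, at 712 FPKM, and in SKNMC it was the small complex IV subunit COX7C at 665 FPKM. The lowest subunit gene above 10 FPKM in both lines was NDUFV3, an accessory subunit of the NADH-oxidizing arm of complex I, at 17.5 FPKM in A673 and 17.8 FPKM in SKNMC.

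The levels of the lines with DMSO were close. Across the 97 members active in both, Spearman's rank correlation between the lines was 0.93, beside 0.87 over 10383 active genes, as a description with no test. At least 2-fold lower in A673 than in SKNMC were 2 of 97 members, beside 13.9% of all active protein-coding genes. At least 2-fold higher were 2 of 97, beside 8.35%. For these shares a gene was active when the mean of the DMSO libraries was above 1 FPKM (11535 genes). Genes active in a single line thus also entered. NDUFAF3, a complex I assembly factor, had 12.0 FPKM in A673 and 54.1 FPKM in SKNMC. COX18, which inserts part of MT-CO2 into the membrane, had 3.62 FPKM in A673 and 9.22 FPKM in SKNMC. In the other direction, COX20, a chaperone of MT-CO2, had 40.7 FPKM in A673 and 18.9 FPKM in SKNMC, and NDUFS3, a core complex I subunit, had 261 FPKM in A673 and 114 FPKM in SKNMC. NDUFS3 lies over a same-strand neighbour, PTPMT1, along 8033 bp, and PTPMT1 was also higher in A673, with 56.7 FPKM against 15.9 FPKM.

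**Figure D1:**
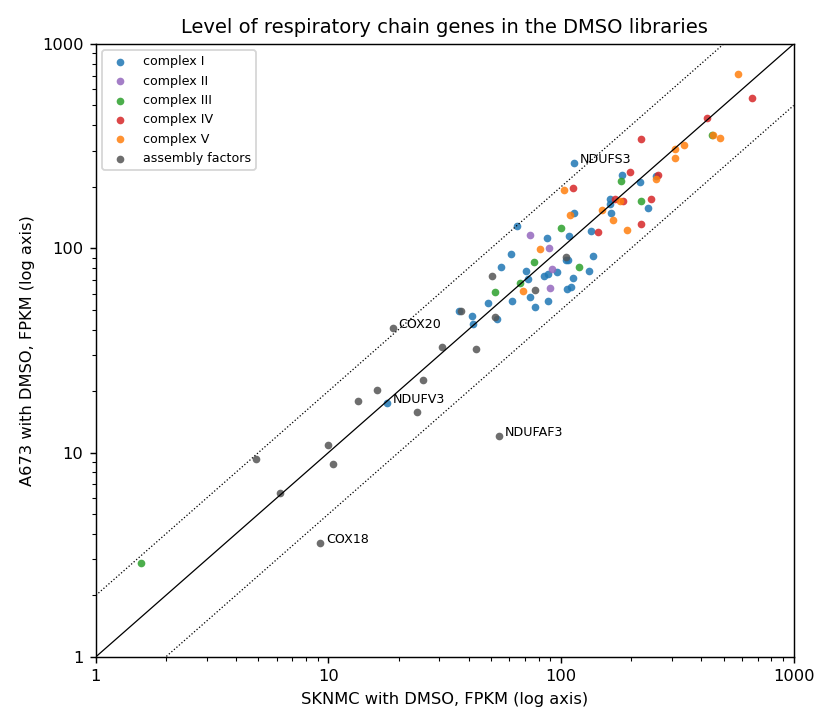
FPKM of the members active in both lines, SKNMC with DMSO on the x axis and A673 with DMSO on the y axis, both on log axes, 1 point per gene, colored by complex. The solid line marks equal levels and the dotted lines a 2-fold difference; 4 members (NDUFS3, COX20, NDUFAF3 and COX18) lie beyond 2-fold also with 1 FPKM added, NDUFB8 lies just past the line in plain FPKM (129 against 64.3 FPKM), and complexes IV and V fill the upper end.

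With THZ1, the respiratory chain genes stood above the bulk of the transcriptome in both lines and at both doses. In A673 the members had a median change of 0.17 at 50 nM and 0.32 at 200 nM, while that of all active protein-coding genes was -0.27 and -0.39. In SKNMC the members had a median of 0.11 at 50 nM and 0.15 at 200 nM, against -0.32 and -0.55 for all active genes. The members thus lay 0.44, 0.71, 0.43 and 0.70 above the all-gene median on the log2 scale, in that order. With no filter on low values, so that genes at or near 0 also entered, the distances were 0.18, 0.29, 0.16 and 0.20. The sign of the members' own median depended on the scaling: divided by the median of the cytosolic ribosomal protein genes, it was -0.06 and -0.03 in A673 and -0.25 and -0.43 in SKNMC. The distance from the all-gene median stayed positive under each scaling tried. Since FPKM only gives shares within a library, these values cannot tell more transcripts per cell from fewer transcripts of other genes, and fewer cells cannot be told apart from less RNA per cell. The contrasts at 50 nM and at 200 nM share the DMSO library of their line.

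Few members were much lower. At least 1.5-fold lower were 5 of 97 members in A673 at 50 nM, where 31.6% of all active genes were, and 7 of 97 at 200 nM, where 41.1% were. In SKNMC it was 8 of 98 at 50 nM, beside 33.2% of all active genes, and 12 of 98 at 200 nM, beside 48.4%. At least 2-fold lower were 1 and 3 members in A673, beside 15.8% and 25.4% of all active genes, and 3 and 7 members in SKNMC, beside 15.6% and 27.6%. Members at least 1.5-fold higher made up a share near that of all active genes: 1 and 3 in A673, beside 1.73% and 1.65%, and 1 and 3 in SKNMC, beside 2.33% and 2.69%. These were NDUFA4, NDUFB2, COX6C, NDUFA13, UQCRB and UQCR11, and for UQCR11 it was the second locus, at 2.88 FPKM in A673 and 1.56 FPKM in SKNMC with DMSO, that passed the fold. The split into higher and lower moved with the scaling: divided by the 75th percentile of the active genes, 14 and 64 members in A673 and 25 and 55 in SKNMC were at least 1.5-fold higher, with 2, 3, 5 and 6 lower. Of all active genes, 6.55%, 15.0%, 9.02% and 16.1% were then higher and 22.8%, 29.8%, 22.9% and 27.3% lower. Divided by the ribosomal protein genes, no member was at least 1.5-fold higher in any contrast, beside 0.234% to 0.638% of all active genes. At 200 nM 12 members in A673 were then lower, beside 55.0%, and 39 in SKNMC, beside 74.7%.

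The assembly factors had the lowest median of these classes in each contrast. In A673 at 200 nM the median change was 0.36 for complex I, 0.15 for complex II, 0.36 for complex III, 0.47 for complex IV and 0.38 for complex V, and it was -0.22 for the assembly factors. In SKNMC at 200 nM the medians were 0.17, -0.30, 0.18, 0.37 and 0.17 for complexes I to V, and -0.52 for the assembly factors. At 50 nM the medians of complexes I to V were 0.21, 0.08, 0.18, 0.23 and 0.20 in A673 and 0.07, -0.04, 0.30, 0.31 and 0.19 in SKNMC, with assembly factors at -0.18 and -0.28. Subunits exceeded assembly factors in the median by 0.38 and 0.59 in A673 and by 0.46 and 0.69 in SKNMC. At least 1.5-fold lower were 1 of 76 subunits and 4 of 18 assembly factors in A673 at 50 nM, and 2 of 76 and 5 of 18 at 200 nM. In SKNMC the same counts were 1 of 77 and 7 of 18 at 50 nM, and 4 of 77 and 8 of 18 at 200 nM. For the assembly factors this was 22.2% and 27.8% in A673 and 38.9% and 44.4% in SKNMC. Of all active genes, 31.6% and 41.1% in A673 and 33.2% and 48.4% in SKNMC passed the same fold. The share of assembly factors thus lay below that of active genes at large in A673 and near it in SKNMC. With 18 genes in the class and no test, this is not read as a difference.

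**Figure D2:**
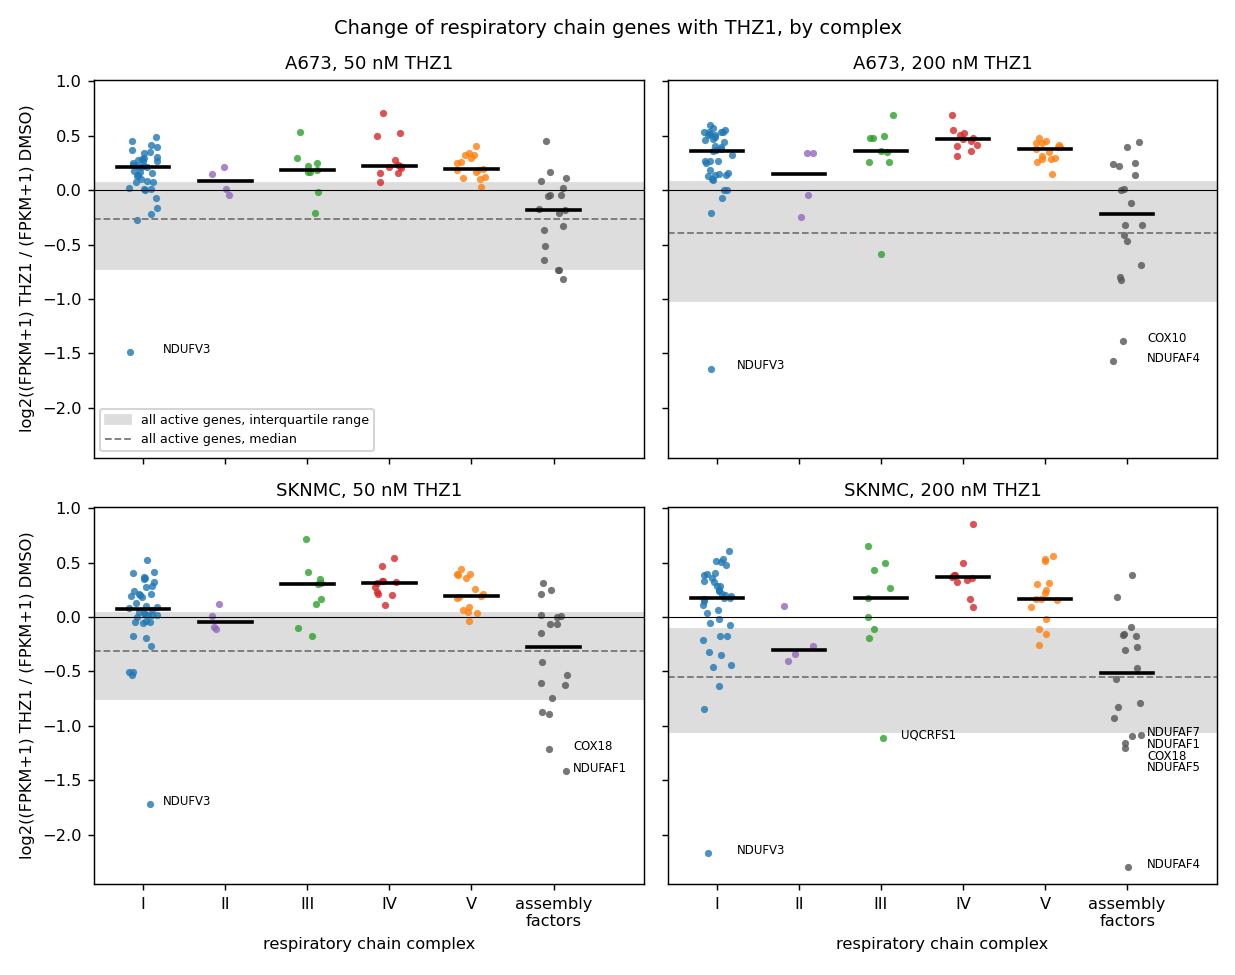
Change of each active member with THZ1 as log2((FPKM+1) THZ1 / (FPKM+1) DMSO) on the y axis, by complex on the x axis, 1 panel per line and dose. Black bars are class medians, the grey band is the interquartile range of all active protein-coding genes and the dashed line their median; members at least 2-fold lower are named. In the values as deposited complex IV lies above 0 in every panel, and the assembly factors spread around the dashed line; divided by the ribosomal protein genes, 1 of 11 complex IV genes stays above 0 in every panel.

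Higher in all 4 contrasts were 51 of the 97 members active in both lines (52.6%), against 10.1% of all active genes, but this fell to 1 of 97 when libraries were divided by the ribosomal protein genes. Above the median of all active genes in all 4 contrasts were 78 of 97 members (80.4%), against 29.4% of all active genes. All 15 active complex V genes, all 11 of complex IV and all 4 of complex II met this. So did 33 of 37 of complex I and 8 of 9 of complex III. Of the assembly factors 5 of 18 did (27.8%), near the 29.4% of all active genes. Below the all-gene median in all 4 contrasts were 5 members (5.15%), against 29% of all active genes. They were the assembly factors NDUFAF4, NDUFAF5, COX15 and COX18, which are 22.2% of that class, and the subunit NDUFV3.

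The promoters of the members with the highest and the lowest mean change within complex I, complex III and the assembly factors are shown as the extremes of each class. Each window holds the 150 bases before the RefSeq transcription start on GRCh38.p14, on the strand of the gene and 5′ to 3′. Capitals mark letters that match a motif on either strand: GCGCA, any base and GCGC for the factor NRF1, CCGGAAG for ETS factors such as GABPA, CCAAT for the CCAAT box and TATAAA for the TATA box. Promoters matched for 83 of the 106 symbols.
NDUFB2, highest of complex I, chr7:140696558-140696707, plus strand: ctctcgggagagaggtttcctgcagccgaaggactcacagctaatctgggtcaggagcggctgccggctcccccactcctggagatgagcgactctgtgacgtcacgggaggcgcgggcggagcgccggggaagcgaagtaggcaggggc
NDUFV3, lowest of complex I, chr21:42893159-42893308, plus strand: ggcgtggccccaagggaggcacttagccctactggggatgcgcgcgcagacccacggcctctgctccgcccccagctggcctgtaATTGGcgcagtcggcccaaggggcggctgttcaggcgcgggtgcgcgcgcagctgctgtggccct
UQCR11, highest of complex III, chr19:1605463-1605612, minus strand: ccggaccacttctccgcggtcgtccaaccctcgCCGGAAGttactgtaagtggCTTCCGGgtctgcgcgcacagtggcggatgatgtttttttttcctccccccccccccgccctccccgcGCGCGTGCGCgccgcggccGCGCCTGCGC
UQCRFS1, lowest of complex III, chr19:29213152-29213301, minus strand: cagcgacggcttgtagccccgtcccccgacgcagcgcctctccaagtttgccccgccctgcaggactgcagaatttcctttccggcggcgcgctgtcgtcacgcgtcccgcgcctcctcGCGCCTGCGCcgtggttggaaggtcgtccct
COX16, highest of the assembly factors, chr14:70359684-70359833, minus strand: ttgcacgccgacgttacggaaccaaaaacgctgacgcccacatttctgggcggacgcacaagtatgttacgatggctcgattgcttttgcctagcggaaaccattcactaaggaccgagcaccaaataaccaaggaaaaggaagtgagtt
NDUFAF4, lowest of the assembly factors, chr6:96897892-96898041, minus strand: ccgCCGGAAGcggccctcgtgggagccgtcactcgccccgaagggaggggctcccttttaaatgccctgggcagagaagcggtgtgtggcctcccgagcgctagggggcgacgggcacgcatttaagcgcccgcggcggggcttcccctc

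In the printed windows an NRF1 match stood in both complex III promoters, an ETS match in UQCR11 and in NDUFAF4, and a CCAAT box in NDUFV3. The windows of NDUFB2 and COX16 held no match. The members of each pair thus differed, but no motif stood on the same side in every pair. Over the 250 bases before the start, 19.3% of the 83 matched members held the NRF1 letters, against 8.72% of 15843 protein-coding genes, and 26.5% held the ETS letters, against 14% of them. The CCAAT box stood in 34.9% of the members and 40.2% of all, and the TATA box in 9.64% and 11.9%. Members with the NRF1 letters had a median change of 0.29 in A673 at 200 nM and 0.06 in SKNMC at 200 nM, and those without had 0.31 and 0.15. With the ETS letters the medians were 0.33 and 0.17, and without them 0.30 and 0.08. Matches of different motifs do not overlap in the printed windows, and a match is a description of letters, not of binding.

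In complex I, the core subunits that carry flavin and iron-sulfur clusters lay lower than the accessory subunits around them. The median change of the 7 core genes was 0.01 and 0.13 in A673 and -0.17 and -0.18 in SKNMC at 50 and 200 nM, while the accessory genes had 0.22 and 0.40 in A673 and 0.10 and 0.20 in SKNMC. NDUFS7 was the core gene with the highest change, with 49.5, 57.5 and 59.8 FPKM in A673 and 36.4, 37.0 and 52.1 FPKM in SKNMC, for DMSO, 50 nM and 200 nM. NDUFV2 was the lowest, with 74.8, 71.1 and 64.5 FPKM in A673 and 87.7, 61.3 and 48.5 FPKM in SKNMC, a change of -0.84 in SKNMC at 200 nM. NDUFV2 was at least 1.5-fold lower in SKNMC at 200 nM and not in A673. NDUFV1, which binds NADH and the flavin, stayed between 87.8 and 120 FPKM in all 6 libraries.

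Among the accessory subunits NDUFV3 stood apart. NDUFV3 (ENSG00000160194, hg19 chr21:44299753-44333414) had 17.5, 5.57 and 4.92 FPKM in A673 and 17.8, 4.72 and 3.17 FPKM in SKNMC. The THZ1 libraries were thus all below the DMSO libraries, at 31.9% and 28.2% of the DMSO level in A673 and 26.5% and 17.8% in SKNMC. Its change was -1.49 and -1.64 in A673 and -1.72 and -2.17 in SKNMC, and it was the single subunit at least 2-fold lower at 50 nM. At the other end, NDUFB2, a small subunit of the membrane arm, had 157, 202 and 238 FPKM in A673 and 236, 314 and 310 FPKM in SKNMC. NDUFB2 overlaps ADCK2 on the same strand and BRAF on the opposite strand, which had 5.88 and 6.78 FPKM in A673 with DMSO.

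Complex II has no subunit in mitochondrial DNA. Of its 4 active genes, SDHB alone changed in opposite directions in the lines at the same dose, as deposited. SDHA, the flavoprotein, had 63.7, 64.3 and 53.5 FPKM in A673 and 89.6, 97.3 and 67.5 FPKM in SKNMC. SDHB, the iron-sulfur subunit, had 100.1, 116 and 127 FPKM in A673 and 88.4, 82.6 and 73.4 FPKM in SKNMC, so that the THZ1 libraries were above DMSO in A673 and below it in SKNMC in the values as deposited. The membrane anchors SDHC and SDHD had 79.3, 88.3 and 101 FPKM and 116, 112 and 113 FPKM in A673. In SKNMC, SDHC had 91.6, 92.4 and 98.4 FPKM and SDHD 73.7, 68.1 and 58.2 FPKM. SDHC was the 1 complex II gene higher than DMSO in all 4 contrasts in the values as deposited, and lower in all 4 after division by the ribosomal protein genes, like the other 3.

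In complex III, the Rieske iron-sulfur protein UQCRFS1 departed from the other subunits. UQCRFS1 (ENSG00000169021, hg19 chr19:29698172-29704448) had 86.1, 74.3 and 56.8 FPKM in A673 and 76.8, 68.1 and 35.0 FPKM in SKNMC, a change of -0.21 and -0.59 in A673 and -0.17 and -1.11 in SKNMC. Its level followed the dose in both lines. The core proteins UQCRC1 and UQCRC2 had 81.3, 95.01 and 105 FPKM and 125, 141 and 150 FPKM in A673, and 120, 135 and 104 FPKM and 100.3, 109 and 93.1 FPKM in SKNMC. The small subunit UQCR11 had 61.0, 68.7 and 86.7 FPKM in A673 and 52.2, 70.0 and 74.2 FPKM in SKNMC at its main locus, the highest mean change of the complex among genes above 10 FPKM. UQCRB, which binds ubiquinone, was at least 1.5-fold higher in SKNMC at 200 nM, where it had 348 FPKM against 221 FPKM with DMSO.

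In complex IV, the cytochrome c oxidase, all 11 active genes were higher than DMSO in all 4 contrasts as deposited, and 1 of 11 (COX6C) was after division by the ribosomal protein genes. NDUFA4, first described in complex I and now placed in complex IV, had the highest mean change of the complex, with 131, 215 and 212 FPKM in A673 and 222, 323 and 312 FPKM in SKNMC. COX6C had 175, 248 and 257 FPKM in A673 and 244, 339 and 444 FPKM in SKNMC, a change of 0.86 in SKNMC at 200 nM. COX5B, the lowest of the complex, still had 119.99, 127 and 149 FPKM in A673 and 144, 155 and 162 FPKM in SKNMC.

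Complex IV has paired isoform genes, one ubiquitous and one tissue-restricted. The ubiquitous COX4I1 had 342, 414 and 475 FPKM in A673 and 220, 266 and 274 FPKM in SKNMC, while COX4I2 was listed at 0. COX6A1 and COX7A2 were above 150 FPKM in every library, while their muscle forms were listed at 0 (COX6A2) or stayed under 0.2 FPKM (COX7A1). NDUFA4L2, a hypoxia-responsive relative of NDUFA4, had 0.35, 3.02 and 5.83 FPKM in A673 and 0.79, 2.55 and 6.37 FPKM in SKNMC. All 4 THZ1 libraries were above both DMSO libraries, by a change of 1.58 and 2.34 in A673 and 0.99 and 2.04 in SKNMC. COX6B2, the testis form of COX6B1, had 0.0085, 1.20 and 0.675 FPKM in A673 and 0.183, 0.330 and 0.488 FPKM in SKNMC, and its 4 THZ1 libraries were likewise above both DMSO libraries. Neither gene was active with DMSO, so they are in none of the counts or medians.

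In complex V, all 15 active genes were higher than DMSO at both doses in A673 as deposited, and 14 of 15 were at 50 nM and 11 of 15 at 200 nM in SKNMC; none was higher in all 4 contrasts after division by the ribosomal protein genes. ATP5B had 712, 945 and 963 FPKM in A673 and 575, 753 and 669 FPKM in SKNMC. ATP5A1, the alpha subunit, had 307, 349 and 342 FPKM in A673 and 308, 368 and 303 FPKM in SKNMC. ATP5C1, the central gamma stalk, had 193, 220 and 236 FPKM in A673 and 103, 99.7 and 91.8 FPKM in SKNMC. The ATP5G1, ATP5G2 and ATP5G3 genes encode the same ring protein with different targeting sequences, and with DMSO they had 123, 357 and 320 FPKM in A673 and 191, 451 and 339 FPKM in SKNMC. At 200 nM their changes were 0.41, 0.35 and 0.28 in A673 and 0.15, 0.25 and -0.11 in SKNMC. The highest mean change of the complex was that of ATP5I, with 219, 269 and 306 FPKM in A673 and 256, 337 and 371 FPKM in SKNMC. The lowest was that of ATP5F1, with 278, 301 and 345 FPKM in A673 and 308, 317 and 258 FPKM in SKNMC.

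**Figure D3:**
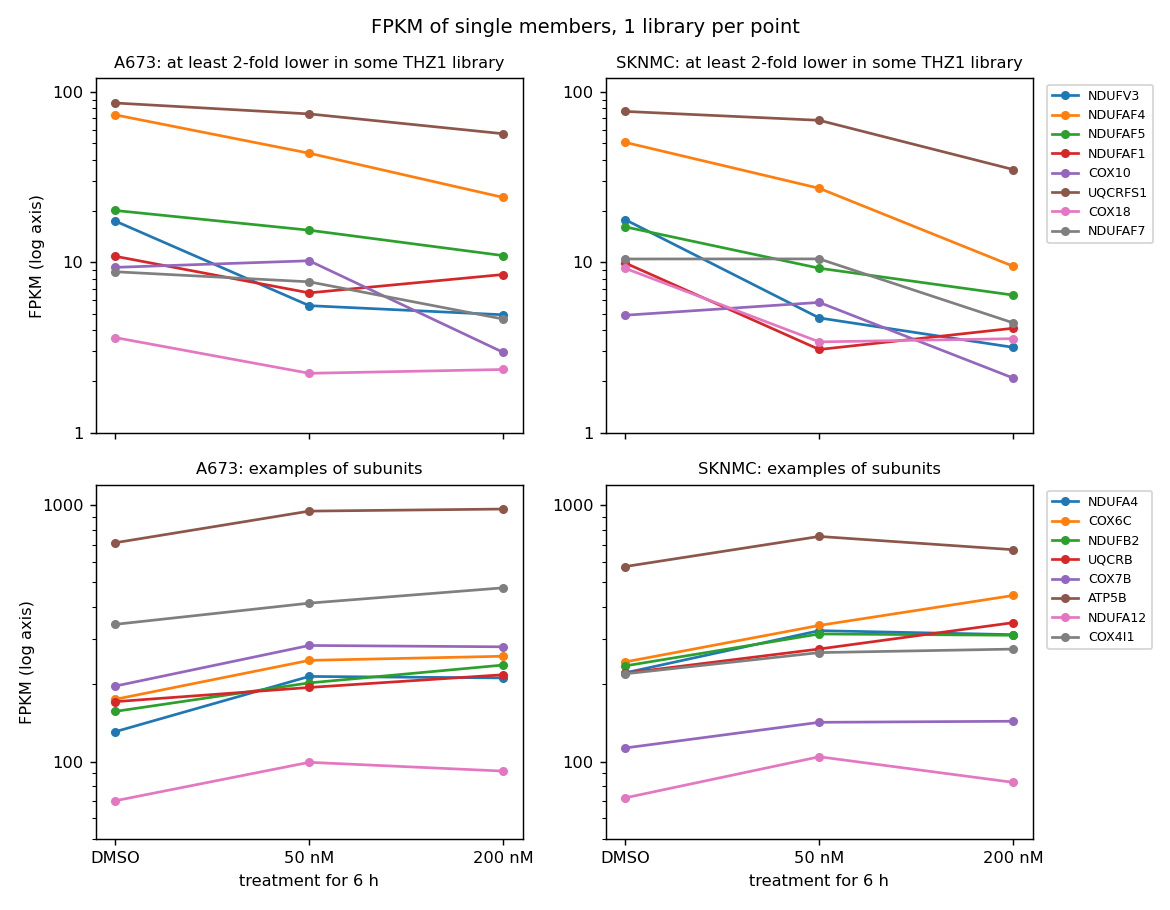
FPKM on a log axis in the 3 libraries of A673 (left) and SKNMC (right), 1 library per point. The upper panels hold the 8 active members that were at least 2-fold lower in some THZ1 library, 6 of them assembly factors; the lower panels hold subunits of complexes I, III, IV and V picked after their values were seen, whose THZ1 libraries lie above DMSO as deposited.

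The assembly factors spread more widely than the subunits. NDUFAF4 (ENSG00000123545, hg19 chr6:97337188-97345757), which acts early in complex I assembly, had 73.3, 43.7 and 24.04 FPKM in A673 and 50.6, 27.2 and 9.48 FPKM in SKNMC. At 200 nM that was 32.8% of the DMSO level in A673 and 18.7% in SKNMC, a change of -1.57 and -2.30. NDUFAF5, which hydroxylates a core subunit, had 20.2, 15.4 and 10.9 FPKM in A673 and 16.1, 9.23 and 6.42 FPKM in SKNMC. Both followed the dose in both lines.

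Other assembly factors differed in how they followed the dose. NDUFAF7, a methyltransferase of complex I assembly, had 8.80, 7.68 and 4.65 FPKM in A673 and 10.5, 10.5 and 4.41 FPKM in SKNMC. The lower level thus appeared mainly at 200 nM. COX10, which makes heme O for complex IV, had 9.34, 10.2 and 2.96 FPKM in A673 and 4.89, 5.82 and 2.09 FPKM in SKNMC, above DMSO at 50 nM and below it at 200 nM in both lines as deposited. NDUFAF1 had its lowest level at 50 nM, with 10.8, 6.62 and 8.48 FPKM in A673 and 9.90, 3.08 and 4.10 FPKM in SKNMC. COX18 had 3.62, 2.23 and 2.35 FPKM in A673 and 9.22, 3.41 and 3.57 FPKM in SKNMC, with both doses alike.

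COX16 was the one assembly factor above DMSO in all 4 contrasts as deposited, with 32.9, 45.2 and 43.5 FPKM in A673 and 30.8, 38.6 and 40.5 FPKM in SKNMC; it was not so after division by the ribosomal protein genes. The supercomplex factor COX7A2L stayed between 90.8 and 108 FPKM in all 6 libraries. The 8 assembly factors of complex I had a median change of -0.32 in A673 and -0.96 in SKNMC at 200 nM, and the 9 of complex IV had -0.12 and -0.30. In SKNMC at 200 nM the complex I factors lay 0.40 below the median of all active genes, whereas the complex IV factors lay 0.25 above it. At 50 nM in the same line the distances were -0.19 and 0.25. In A673 both groups lay above the all-gene median, the complex I factors by 0.08 and 0.07 and the complex IV factors by 0.08 and 0.28.

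Summed over genes, the members made up a larger share of the listed FPKM with THZ1. In A673 they held 2.67% of it with DMSO, 3.15% with 50 nM and 3.39% with 200 nM THZ1, and in SKNMC 2.74%, 3.20% and 3.24%. Complex IV went from 0.5997% to 0.739% and 0.824% in A673 and from 0.615% to 0.769% and 0.833% in SKNMC. Complex II in SKNMC had 0.0743%, 0.0745% and 0.0658%. The assembly factors went from 0.121% to 0.112% and 0.113% in A673 and from 0.127% to 0.109% and 0.0974% in SKNMC.

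**Figure D4:**
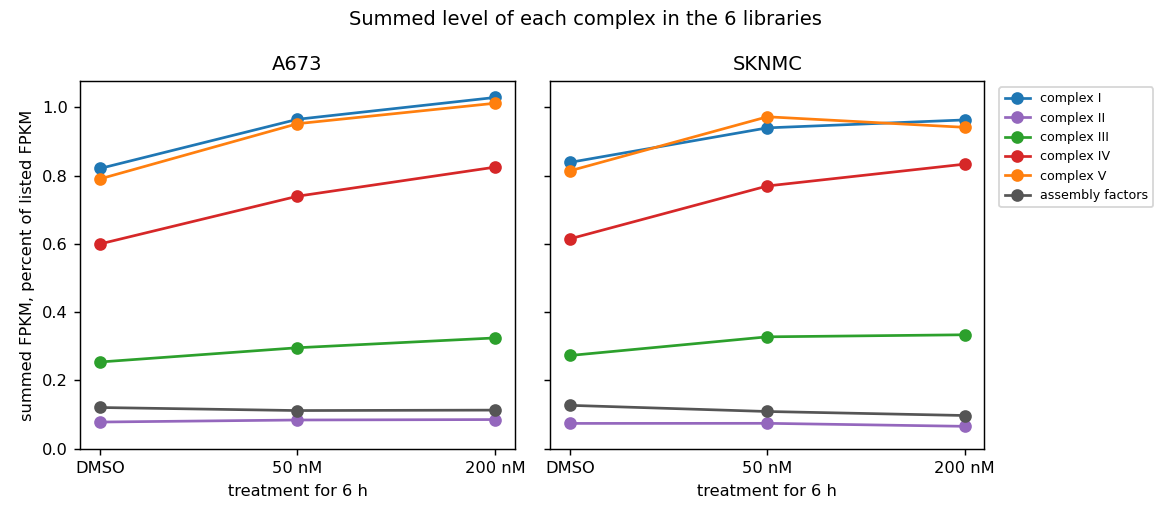
Summed FPKM of the genes of each complex and of the assembly factors, as percent of all listed FPKM, in the 3 libraries of A673 (left) and SKNMC (right). Complexes I and V hold the largest shares, between 0.790% and 1.03%, and complex IV is higher with each dose in both lines; these shares rest on FPKM as deposited.

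Between 50 nM and 200 nM few members passed 1.5-fold as deposited, and the median change depended on the scaling. The median of 200 nM against 50 nM was 0.15 in A673 and 0.03 in SKNMC, beside -0.02 and -0.14 for all active genes. Divided by the ribosomal protein genes, the members' median was 0.03 and -0.19. Divided by the 75th percentile of the active genes, it was 0.25 and 0.28. At least 1.5-fold lower at 200 nM than at 50 nM were 3 of 97 members in A673 (COX10, NDUFAF4 and NDUFAF7), beside 18.1% of all active genes. In SKNMC 6 of 98 were, beside 22.5%: the same 3 genes and NDUFAF2, UQCRFS1 and the second locus of UQCR11. No member was at least 1.5-fold higher in either line, beside 2.25% and 3.58% of all active genes. This comparison does not use the DMSO libraries.

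The lines ordered the members alike, though less closely than all active genes. Across the 97 members active in both, Spearman's rank correlation between the A673 change and the SKNMC change was 0.80 at 50 nM and 0.74 at 200 nM, beside 0.84 and 0.82 over all active genes. For 200 nM against 50 nM it was 0.57, beside 0.77. These are descriptions across genes, which are not replicates, and the lines share no library.

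The change of a member varied with its level and less with the length of its gene, though nearly as much in SKNMC at 200 nM. Level was not separated from class: of the classes, the assembly factors had the lowest median level and the lowest median change. Across members, the Spearman rank correlation between the change and FPKM with DMSO was between 0.44 and 0.50 in the 4 contrasts, and over all active genes it was between 0.08 and 0.21; the DMSO level also enters the change. The rank correlation between the change and the genomic span was -0.08 and -0.27 in A673 and -0.26 and -0.41 in SKNMC. Active members had a median span of 13911 bp, and all active genes 32373 bp. Members of up to 10 kb had a median change of 0.38 in A673 and 0.25 in SKNMC at 200 nM, while all active genes of that length had -0.25 and -0.46. Members over 30 kb had 0.15 and -0.30, and all active genes of that length -0.41 and -0.53. The members thus stood above other genes in each length class.

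Other genes of the pathway came from lists of symbols outside the rule. Of the 13 subunits encoded in mitochondrial DNA, 10 were listed at 0 in all 6 libraries, and MT-ATP6 alone had a level above 1 FPKM, between 60.0 and 82.3 FPKM, so the mitochondrially encoded subunits could not be compared. Cytochrome c itself, CYCS, had 213, 208 and 250.4 FPKM in A673 and 220, 203 and 194 FPKM in SKNMC. Cytochrome c1 of complex III, CYC1, had 287, 310 and 341 FPKM in A673 and 147, 152 and 176 FPKM in SKNMC. The ATP synthase inhibitor ATPIF1 stayed between 87.9 and 99.6 FPKM in A673 and between 173 and 176 FPKM in SKNMC. No one of these 3 genes reached 1.5-fold in any contrast.

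Assembly factors with other symbols were described from a list. Of 38 symbols 35 matched and were active, and at least 1.5-fold lower were 11 and 11 of 35 in A673 and 18 and 19 of 35 in SKNMC at 50 and 200 nM. The shares of all active genes were 31.6% and 41.1% in A673 and 33.2% and 48.4% in SKNMC. Their medians were -0.37 and -0.16 in A673 and -0.59 and -0.64 in SKNMC. The lowest mean change was that of COA7, a complex IV assembly factor, with 21.8, 4.40 and 2.15 FPKM in A673 and 29.4, 7.003 and 2.44 FPKM in SKNMC. The highest above 10 FPKM was that of PET100, another complex IV factor, with 29.4, 31.5 and 38.2 FPKM in A673 and 29.2, 28.5 and 42.8 FPKM in SKNMC. SDHAF1 and SDHAF2, which equip complex II with its iron-sulfur clusters and flavin, went from 6.73 to 0.457 FPKM and from 30.3 to 11.3 FPKM between DMSO and 200 nM in A673. In SKNMC they went from 9.36 to 0.943 FPKM and from 28.1 to 5.92 FPKM.

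Regulators of mitochondrial genes, acting in the nucleus or in the mitochondrion, were also taken from a list. At least 1.5-fold lower were 6 and 9 of the 11 active regulators in A673 and 4 and 8 in SKNMC, at 50 and 200 nM, with medians of -0.67 and -1.17 in A673 and -0.49 and -1.16 in SKNMC. Of all active genes 31.6% and 41.1% in A673 and 33.2% and 48.4% in SKNMC passed the same fold. NRF1, a factor that binds many respiratory gene promoters, had 9.90, 5.88 and 2.80 FPKM in A673 and 9.66, 6.58 and 3.20 FPKM in SKNMC. Of the GABP complex, the ETS-domain subunit GABPA had 15.2, 15.0 and 12.6 FPKM in A673 and 14.8, 12.6 and 13.8 FPKM in SKNMC. Its partner GABPB1 had 17.6, 9.43 and 6.58 FPKM in A673 and 9.66, 3.86 and 2.03 FPKM in SKNMC. The coactivator PPRC1 had 25.9, 14.0 and 6.17 FPKM in A673 and 18.8, 11.1 and 4.06 FPKM in SKNMC.

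Some of the 11 act in the mitochondrion. The mitochondrial RNA polymerase POLRMT had 34.3, 20.8 and 14.7 FPKM in A673 and 29.0, 20.3 and 12.8 FPKM in SKNMC. TFAM, which packages and transcribes mitochondrial DNA, had 47.5, 54.7 and 37.6 FPKM in A673 and 25.3, 41.2 and 22.4 FPKM in SKNMC, above DMSO at 50 nM and below it at 200 nM. Whether the RNA of the regulators bears on that of the members was not tested.

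**Figure D5:**
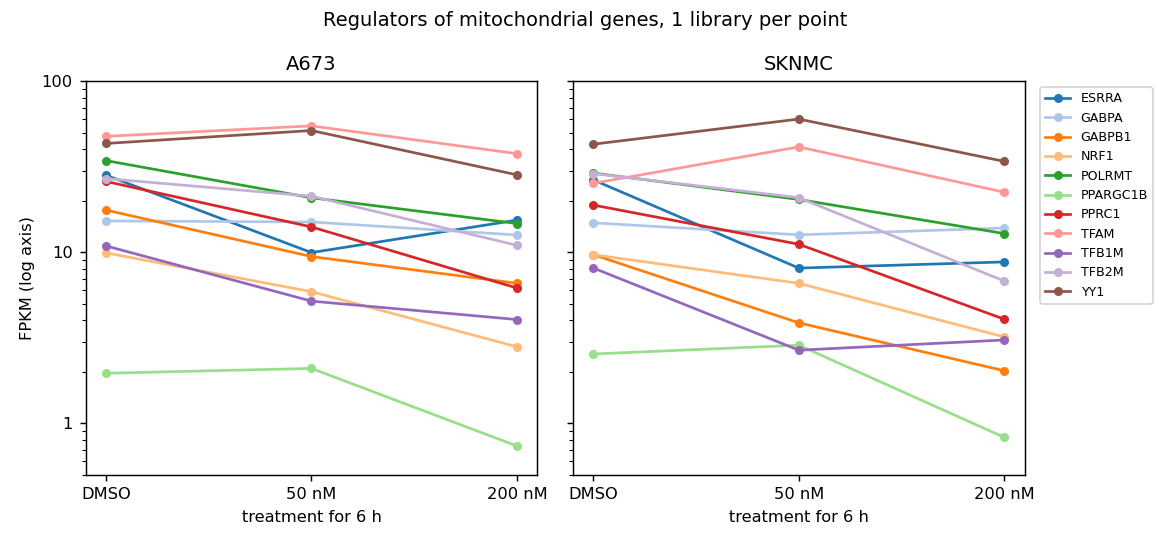
FPKM on a log axis of 11 regulators of mitochondrial genes in the 3 libraries of A673 (left) and SKNMC (right), 1 library per point; PPARGC1A, at or near 0, is left out. NRF1, GABPB1, PPRC1, POLRMT and TFB2M step down with each dose in both lines, while GABPA stays between 12.6 and 15.2 FPKM.

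Overlapping genes limit some of these values, since the strand used in counting is not given in the sources used here. Of the member symbols, 50 overlap another listed gene and 39 overlap one on the opposite strand. NDUFV3, NDUFAF4, COX10, COX16 and NDUFA4 overlap no other listed gene, and UQCRFS1 overlaps only a lincRNA at or near 0 FPKM. Many respiratory chain genes also have processed pseudogenes elsewhere in the genome, with which reads could have been shared.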

How the data were processed

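RNA of 6 conditions was measured, with 1 library each. From TruSeq libraries, the authors aligned paired-end reads of 100 bp to hg19 with STAR and Ensembl 75, and deposited FPKM values; the methods name StringTie for this step and the submitters' processing notes name Cufflinks. The authors also deposited log2 fold changes in 4 columns, which were not used. Whether a column pools libraries is not given in the sources used here, although the table's title speaks of average expression. Low FPKM values did not resolve into whole reads: from 3.35% to 4.90% of low genes sat at a common step, which put the THZ1 libraries roughly at 89.2% to 97.6% of the DMSO depth, so the absolute depth is unknown and no counting interval is given.

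Changes were log2 ratios of FPKM with a pseudocount of 1, over protein-coding genes above 1 FPKM with DMSO (10819 in A673, 11551 in SKNMC), and counts used 1.5-fold and 2-fold. Medians were set beside those of all active genes. Python 3.11.15, pandas 2.3.3, numpy 2.4.6 and matplotlib 3.10.9 were used, and the steps were tested on simulated data.

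Named genes were core subunits, the highest and lowest mean change per class above 10 FPKM, members changed at least 2-fold above 5 FPKM, paralogs, the 5 members differing most between lines in each direction, and pathway genes with the extremes of each list; other genes named for their counts or the subunits plotted were chosen after their values were seen. Some genes that this rule names are not reported here. The members and lists were chosen with earlier results of these data known. Promoters are from RefSeq on GRCh38.p14.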

Additional observations from a re-analysis of the deposited data

Results flagged for a closer look

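In 4 members the THZ1 libraries lay above DMSO at both doses in A673 and below it at both doses in SKNMC, in FPKM as deposited. Each condition had 1 library, so no test of this difference between lines was made, and the 50 and 200 nM values of a line share their DMSO library. SDHB had a change of 0.21 and 0.34 in A673 and of -0.10 and -0.27 in SKNMC. ATP5C1 had 0.19 and 0.29 in A673 and -0.041 and -0.16 in SKNMC. The core complex I subunit NDUFS1 had 0.010 and 0.15 in A673 and -0.20 and -0.46 in SKNMC. NDUFS8, another core subunit, had 0.0096 and 0.13 in A673 and -0.17 and -0.016 in SKNMC. The pattern depended on the scaling: divided by the 75th percentile of the active genes, all 4 genes were higher than DMSO in all 4 contrasts, and divided by the ribosomal protein genes all 4 were lower in all 4.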

How the results depend on the processing

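Values in fours stand for A673 at 50 and 200 nM, then SKNMC at 50 and 200 nM. Division by the ribosomal protein median shifted the all-gene median by -0.20, -0.29, -0.28 and -0.41 and turned the members' median to -0.064, -0.031, -0.25 and -0.43, with 0.031 and -0.19 for 200 against 50 nM. Division by the 75th percentile of active genes shifted the all-gene median by 0.22, 0.32, 0.25 and 0.47 and gave members' medians of 0.42, 0.68, 0.40 and 0.68, with 0.25 and 0.28 between doses and -0.23 for A673 against SKNMC with DMSO. Rescaling to a common sum changed no count of members by more than 1.5 times. The difference between subunits and assembly factors kept its sign in every alternative, between 0.29 and 0.71.

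Counts of members moved with the scaling. By the 75th percentile, 14, 64, 25 and 55 were at least 1.5-fold higher, beside 6.55%, 15.0%, 9.02% and 16.1% of all active genes. At least 1.5-fold lower were 2, 3, 5 and 6, beside 22.8%, 29.8%, 22.9% and 27.3%. In SKNMC at 200 nM 2 were at least 2-fold lower, beside 14.2%. By the ribosomal proteins, 0, 0, 0 and 0 were at least 1.5-fold higher, beside 0.638%, 0.240%, 0.511% and 0.234% of all active genes. At 200 nM in A673 12 were 1.5-fold and 5 were 2-fold lower, beside 55.0% and 34.8%. In SKNMC at 50 nM 14 and 6 were, beside 50.8% and 23.5%, and at 200 nM 39 and 16, beside 74.7% and 47.9%. Among members above 10 FPKM, 4 in A673 at 200 nM and 5 in SKNMC at 50 nM were 1.5-fold lower, beside 37.9% and 29.1%. In SKNMC at 50 nM 1 was 2-fold lower, beside 13.7%, and 0 were 1.5-fold higher, beside 1.59%. With no filter 3, 5 and 3 were 1.5-fold higher in the first 3 contrasts, beside 1.32%, 1.56% and 1.62%. With activity by the mean of 3 libraries 2 and 2 were at 50 nM, beside 2.12% and 2.67%. A pseudocount of 0.1 also gave 2 and 2 at 50 nM, beside 2.33% and 2.94%. Without second and readthrough loci 0 were in SKNMC at 50 nM, beside 2.33%.

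The distance of medians from the all-gene median, without a filter on low values, was smaller because genes at or near 0 enter the all-gene median. It was 0.18, 0.29, 0.16 and 0.20 for all members, 0.19, 0.33, 0.13 and 0.26 for complex I, 0.11, 0.12, 0.059 and -0.25 for complex II, 0.19, 0.37, 0.35 and 0.26 for complex III, 0.22, 0.44, 0.29 and 0.43 for complex IV, and 0.20, 0.37, 0.23 and 0.26 for complex V. The assembly factors had -0.17, -0.21, -0.23 and -0.43. In the other alternatives they lay between -0.10 and 0.33 from the all-gene median. With activity above 10 FPKM, A673 at 50 nM had 0.36 for all members, 0.37 for complex III, 0.42 for complex IV and 0.39 for complex V, complex IV at 200 nM had 0.79, and complex I in SKNMC at 50 nM had 0.32. With activity by the mean of 3 libraries, complex III in A673 at 50 nM had 0.43. With a pseudocount of 0.1, A673 at 50 nM had 0.47 for all members and 0.52 for complex I, A673 at 200 nM had 0.92 for complex IV and 0.83 for complex V, complex IV in SKNMC at 50 nM had 0.67, and SKNMC at 200 nM had 0.79, 0.81 and 1.006 for all members, complex I and complex IV. By the 75th percentile, SKNMC at 200 nM had 0.76, 0.80 and 1.00 for the same groups, complex IV in SKNMC at 50 nM 0.67, and in A673 at 200 nM complex V 0.82 and the cytochrome c genes 0.68. By the ribosomal proteins, SKNMC at 50 nM had 0.35 for all members, 0.30 for complex I, 0.19 for complex II, 0.19 for the cytochrome c genes and 0.23 for the tricarboxylic acid cycle. SKNMC at 200 nM then had 0.55, 0.086, 0.74 and 0.54 for complexes I, II, IV and V, and A673 had 0.42 and 0.43 for complexes III and V at 50 nM and 0.80 for complex IV and 0.57 for the cytochrome c genes at 200 nM. The cause of these smaller moves was not tested.

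No paired analysis was possible because no result comes from a test and each condition has 1 library. The variation between cultures is unknown, and the unknown depth limits the members at low FPKM most.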

Other observations

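The tricarboxylic acid cycle, which feeds the respiratory chain with NADH and succinate, was described with a list of 13 symbols, all active. Their median change was 0.12 and 0.14 in A673 and -0.01 and -0.22 in SKNMC at 50 and 200 nM, above the all-gene median in each. At least 1.5-fold lower were 1 and 1 of 13 in A673 and 1 and 3 in SKNMC. Of all active genes, 31.6% and 41.1% in A673 and 33.2% and 48.4% in SKNMC were. OGDH, of the oxoglutarate dehydrogenase complex, had the lowest mean change, with 27.7, 14.7 and 20.6 FPKM in A673 and 32.5, 13.2 and 17.1 FPKM in SKNMC.

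Mitochondrial ribosomal proteins, which translate the subunits encoded in mitochondrial DNA, were described with a list of their own. Of 76 active genes, 23 and 26 in A673 and 31 and 48 in SKNMC were at least 1.5-fold lower, beside 31.6%, 41.1%, 33.2% and 48.4% of all active genes, with medians of -0.32 and -0.26 in A673 and -0.47 and -0.79 in SKNMC. The lowest mean change was that of MRPL36, with 65.1, 19.4 and 15.4 FPKM in A673 and 68.4, 18.1 and 12.2 FPKM in SKNMC. The highest above 10 FPKM was that of MRPL23, with 53.6, 56.0 and 70.2 FPKM in A673 and 70.3, 72.5 and 88.9 FPKM in SKNMC. Cytosolic ribosomal proteins, used for 1 of the scalings, had medians of 0.20 and 0.36 in A673 and 0.37 and 0.59 in SKNMC as deposited.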
